A study of Mus musculus with 40 samples.

Results

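The interferon-induced GTPases described here are 9 mouse genes: the guanylate-binding protein genes Gbp2, Gbp3 and Gbp7 and the immunity-related GTPase genes Igtp, Irgm1, Irgm2, Iigp1, Ifi47 and Tgtp1. Every probe set of the array that the annotation assigns to 1 of these symbols alone was taken, which gave 12 probe sets of 45141 and 9 genes of the 17097 that a probe set names alone. Gbp2, Gbp7 and Iigp1 have 2 probe sets each and the other members 1. No probe set names a member together with another gene. Tgtp1 lies on chromosome 11 beside a near-identical copy, Tgtp2, and its single probe set, 1449009_PM_at, cannot be taken to tell the copies apart.

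Both families bind and hydrolyse GTP and are made in many cell types after exposure to interferon gamma, and to a lesser degree type I interferon. In mouse cells they assemble on the membranes of vacuoles that hold bacteria or parasites such as Toxoplasma, and they disrupt those vacuoles. Among the immunity-related GTPases, Igtp (also called Irgm3), Irgm1 and Irgm2 sit on the cell's own membranes and keep the effector GTPases inactive there. Iigp1 (Irga6), Tgtp1 (Irgb6) and Ifi47 (Irgd) are such effectors, which load onto the vacuole. The guanylate-binding proteins act on the same vacuoles, and in macrophages they help to expose bacterial lipopolysaccharide to the caspase that Casp4 encodes. Because melanoma cells and host leukocytes can both make them, their RNA in a tumour is a sum over cell types.

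RNA was measured on Affymetrix 3′ arrays, 1 per sample, in B16F10, a pigmented melanoma line of C57BL/6 mice, grown in culture or as tumours under the skin of C57black6J mice that were 8 weeks old when injected. The drugs were OTX015 (OTX-015), an inhibitor of the BET bromodomain proteins, and guadecitabine, a prodrug of the DNA methyltransferase inhibitor decitabine, and the series asks how such drugs change the tumour and its surroundings. The groups were 4 cultures treated with OTX015 in vitro against 4 untreated cultures, 10 tumours of mice given OTX-015 by mouth against 11 tumours of that experiment's control mice, and 6 tumours of mice injected with guadecitabine into the peritoneum against 5 control tumours of their own. All 40 samples thus derive from 1 cell line in 1 mouse strain and the labels name no engineered allele, dose, duration, sex or vehicle. They also do not say that replicates were separate cultures or animals, so the p-values measure the spread between these samples, which may in part be technical. The labels call the tumour samples melanocytes from tumours and mention no sorting. All 7 melanocyte markers (Tyr, Tyrp1, Dct, Pmel, Mlana, Mitf and Sox10) lay above background in every group, with group means of the list between 11.35 and 11.49 on the log2 scale, so RNA of the pigment lineage was present throughout. In tumours, which are bulk tissue, fewer cells of a type and less RNA per cell cannot be told apart.

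The deposited values are log2 RMA values. The 10 arrays of OTX015-treated tumours had deposited means between 4.35 and 4.39 and the other 30 between 4.55 and 4.64, so all 40 arrays were quantile normalized before the members were compared, and every level and difference below is on that log2 scale unless the deposited values are named. A level counts as background below 4.47, the 95th percentile of the means of 81 probe sets of odorant and vomeronasal receptor genes. Levels of different probe sets were not set against each other. A probe set was called at a Benjamini-Hochberg adjusted p under 0.05 in limma, fitted over all 45141 probe sets. On 5 arrays the values had a low spread (SD under 1.9): control tumours 9 and 11 and treated tumour 4 of the OTX015 experiment, and guadecitabine tumours 3 and 6.

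Interferons are known to act on promoters through 2 kinds of sequence, and 6 promoters are shown because the values of these genes are followed together afterwards. RefSeq windows of 300 bases, from 250 before to 50 after the start of transcription in the assembly GRCm38.p6, were found for 8 of the 9 members, 9 windows in all since Gbp3 has 2. They were searched on both strands for the core of the interferon-stimulated response element (GAAA, any 2 bases, GAAA), which IRF-containing complexes bind, and for the gamma-activated sequence TTCNNNGAA, which STAT dimers bind. The response element core occurred in a window of 7 members, against 3.44% of the 32851 windows in the table, and the gamma-activated sequence in 4 members, against 8.30%. Igtp, Irgm2 and Tgtp1 have a gamma-activated sequence followed 2 bases later by a response element core, and Gbp7 has both as well. Windows with both made up 0.454% of the table. In the windows of Irgm1 and Gbp3 2 cores overlap each other, and the sequence of Ifi47 holds neither motif. The Igtp and Irgm2 windows, of neighbouring genes on chromosome 11, are 73.5% identical over their aligned length. In the lines that follow, written 5′ to 3′ on the gene's strand, capitals mark the matches.
Gbp2 (chr3:142620413-142620712, + strand): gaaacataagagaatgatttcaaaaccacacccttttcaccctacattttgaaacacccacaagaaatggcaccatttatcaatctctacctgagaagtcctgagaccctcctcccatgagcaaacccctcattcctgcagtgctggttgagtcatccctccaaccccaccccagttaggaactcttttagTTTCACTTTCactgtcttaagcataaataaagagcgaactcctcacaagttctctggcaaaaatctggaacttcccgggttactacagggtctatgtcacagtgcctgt
Irgm1 (chr11:48871371-48871670, - strand): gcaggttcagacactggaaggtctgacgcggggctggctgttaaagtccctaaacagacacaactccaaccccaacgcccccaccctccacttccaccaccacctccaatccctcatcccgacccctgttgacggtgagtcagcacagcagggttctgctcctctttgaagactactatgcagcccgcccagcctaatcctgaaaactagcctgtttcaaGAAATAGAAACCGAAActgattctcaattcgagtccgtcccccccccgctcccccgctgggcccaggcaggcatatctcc
Igtp (chr11:58199306-58199605, + strand): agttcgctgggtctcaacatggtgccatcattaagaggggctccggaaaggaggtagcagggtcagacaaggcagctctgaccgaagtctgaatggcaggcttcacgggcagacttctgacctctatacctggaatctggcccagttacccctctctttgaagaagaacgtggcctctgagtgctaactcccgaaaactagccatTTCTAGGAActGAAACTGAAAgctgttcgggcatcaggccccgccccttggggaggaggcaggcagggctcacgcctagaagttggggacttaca
Irgm2 (chr11:58214727-58215026, + strand): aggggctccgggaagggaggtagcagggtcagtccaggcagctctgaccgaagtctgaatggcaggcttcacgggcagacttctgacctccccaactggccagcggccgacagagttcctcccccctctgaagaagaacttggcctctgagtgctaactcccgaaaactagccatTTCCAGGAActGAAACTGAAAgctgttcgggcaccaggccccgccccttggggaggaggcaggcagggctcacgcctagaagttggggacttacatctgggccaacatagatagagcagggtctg
Tgtp1 (chr11:48992197-48992496, - strand): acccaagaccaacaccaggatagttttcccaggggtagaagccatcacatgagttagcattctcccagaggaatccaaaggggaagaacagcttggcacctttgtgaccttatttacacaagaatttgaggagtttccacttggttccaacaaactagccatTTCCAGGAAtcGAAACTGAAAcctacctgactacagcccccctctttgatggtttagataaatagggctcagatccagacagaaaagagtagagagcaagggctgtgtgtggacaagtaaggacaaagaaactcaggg
Ifi47 (chr11:49076337-49076636, + strand): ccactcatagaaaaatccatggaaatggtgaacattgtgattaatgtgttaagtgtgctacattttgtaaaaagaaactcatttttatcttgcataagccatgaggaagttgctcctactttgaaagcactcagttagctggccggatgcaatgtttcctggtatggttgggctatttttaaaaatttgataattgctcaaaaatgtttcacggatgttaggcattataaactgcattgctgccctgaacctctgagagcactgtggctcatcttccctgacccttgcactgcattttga

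Across the 6 groups the members did not share 1 order of levels. Gbp2, which encodes a guanylate-binding protein that restricts Toxoplasma, averaged 4.04 ± 0.25 in OTX015-treated tumours (SD, n = 10) and 5.04 ± 0.57 in their controls (n = 11) on 1418240_PM_at. It averaged 4.64 ± 0.39 in guadecitabine tumours (n = 6) and 4.20 ± 0.36 in their controls (n = 5), and 5.25 ± 0.26 in treated and 6.39 ± 0.06 in untreated cultures (n = 4 each). Untreated cultures were thus highest, and OTX015-treated tumours and the guadecitabine controls, which differed by less than their SDs, lay below background. Treated cultures and the OTX015 control tumours also differed by less than an SD.
Tgtp1 was lowest in cultures, whereas within each drug pair it lay in the same order as Gbp2. It averaged 5.58 ± 0.34 in OTX015-treated tumours and 6.65 ± 0.68 in their controls, and 6.74 ± 0.53 in guadecitabine tumours and 5.80 ± 0.70 in their controls. Guadecitabine tumours and the OTX015 controls were highest and differed by less than an SD, as did OTX015-treated tumours and the guadecitabine controls. Both kinds of culture lay below background, treated cultures at 3.84 ± 0.09 and untreated cultures at 4.34 ± 0.19.
Ifi47 had a similar arrangement of tumours, with 4.85 ± 0.16 in OTX015-treated tumours and 5.66 ± 0.51 in their controls, and 5.61 ± 0.36 in guadecitabine tumours and 4.92 ± 0.27 in their controls. Cultures lay close to background, at 4.46 ± 0.09 with OTX015 and 4.55 ± 0.05 without. Irgm1, the member whose loss in mice causes failure of blood stem cells under interferon, was well above background in every group, from 5.53 ± 0.06 in treated cultures to 7.09 ± 0.29 in the OTX015 controls. Gbp3 and both probe sets of Iigp1 had group means below background throughout, from 2.96 to 4.10 for Gbp3, from 2.25 to 2.83 for 1419042_PM_at and from 3.67 to 4.05 for 1419043_PM_a_at, so the sizes of their differences depend on the floor of the array.

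**Figure D1:**
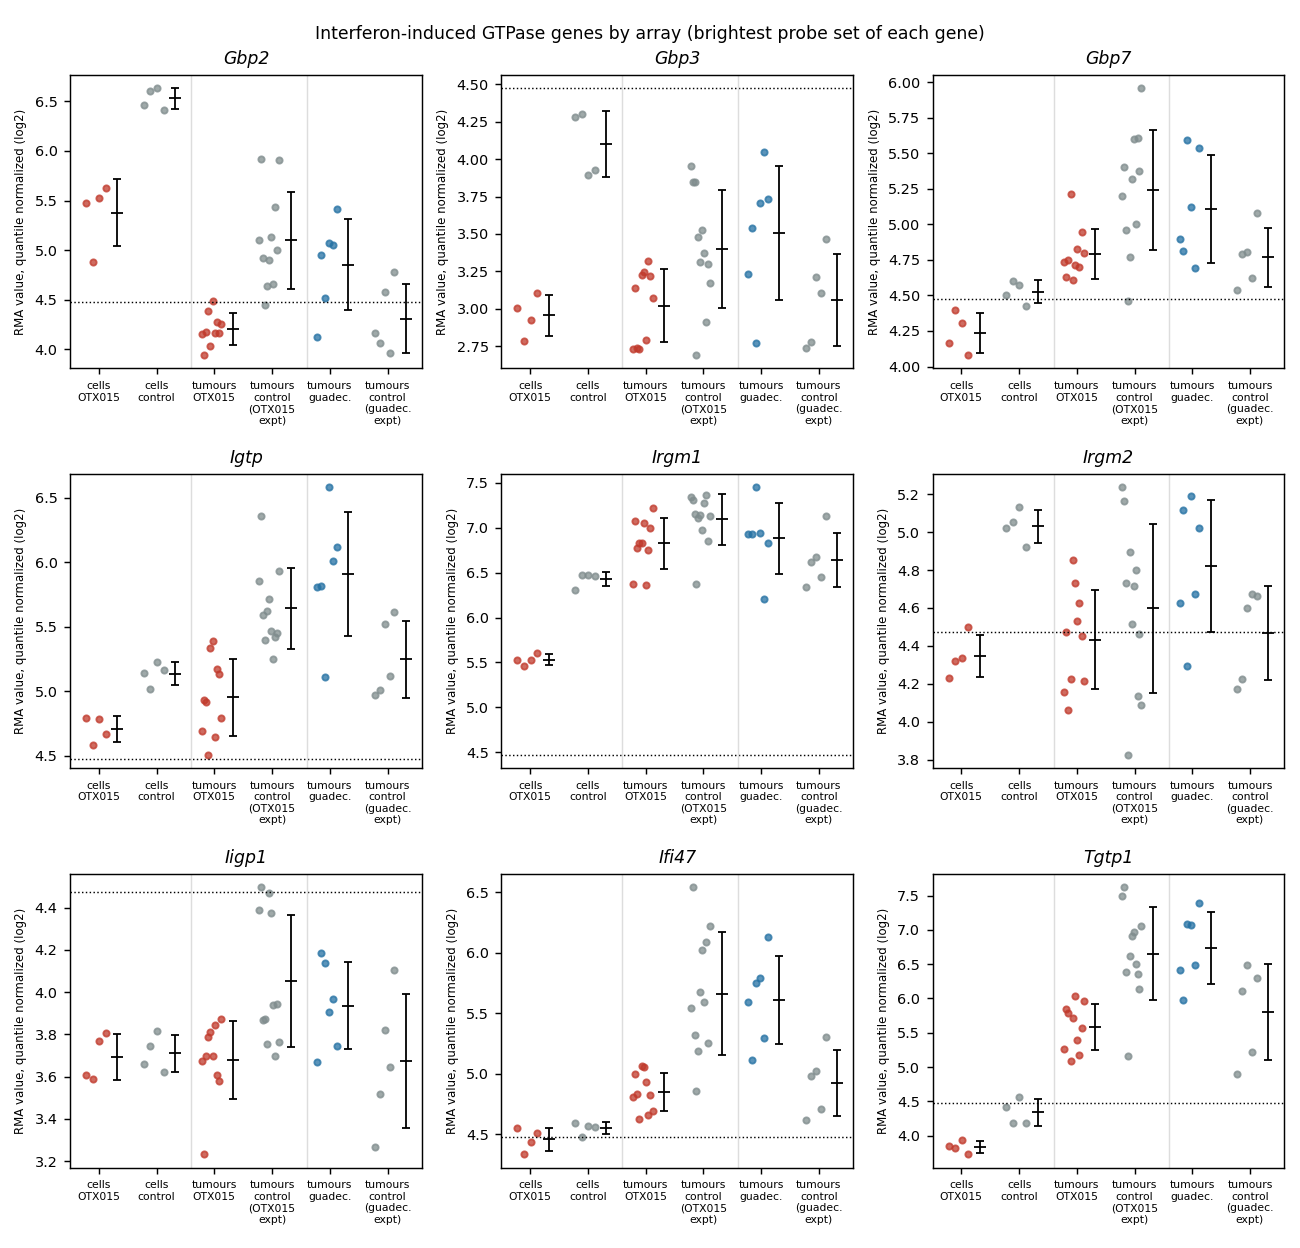
Quantile-normalized RMA value (log2) of each of the 9 genes on its brightest probe set, by array and group; each point is an array, black marks with bars show group means and SDs, and the dotted line is the background level of 4.47. Tgtp1 and Ifi47 are lowest in cultures and Gbp2 is highest in untreated cultures, and in the OTX015 pairs Gbp2 sits lower with treatment both in cultures and in tumours.

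In cultured cells, OTX015 was set against no treatment, which asks what the drug does to the melanoma cells without a host. Of the 12 probe sets 9 fell and 0 rose, in 7 of the 9 genes, with a median log2 difference of -0.59. Over all probe sets 29.8% were called, 15.2% higher and 14.7% lower, with a median of 0.01. For all 9 probe sets that fell, the 4 treated cultures lay below the 4 untreated ones without overlap, as did 14.9% of all probe sets.
Gbp2 on 1418240_PM_at read 5.45, 4.91, 5.19 and 5.46 in treated cultures, against 6.46, 6.33, 6.39 and 6.37 in untreated cultures. Treated culture 2 was the lowest and the groups did not overlap. The difference was -1.13 ± 0.11 (SE, n = 4 and 4; 2.20-fold lower, limma adjusted p = 1.14e-05), and the second Gbp2 probe set, 1435906_PM_x_at, gave -1.15 ± 0.14 (adjusted p = 6.05e-05). Irgm1 read 5.53, 5.46, 5.52 and 5.60 in treated cultures, against 6.31, 6.48, 6.47 and 6.46 in untreated cultures. All 4 treated cultures lay close together and below every control. Its difference was -0.90 ± 0.07 (1.87-fold lower, adjusted p = 1.0e-06), the smallest adjusted p among the members.
Irgm2, a regulator GTPase of the same subfamily, read 4.23, 4.32, 4.34 and 4.50 in treated cultures, against 5.02, 5.05, 5.13 and 4.92 in untreated cultures. Treated cultures lay about at background and untreated ones above it. The difference was -0.68 ± 0.08 (adjusted p = 2.73e-05). Igtp, the third regulator, read 4.79, 4.58, 4.78 and 4.67 in treated cultures, against 5.14, 5.02, 5.23 and 5.16 in untreated cultures. It fell by 0.43 on the log2 scale (SE 0.07, adjusted p = 0.000752).

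Gbp7 encodes a guanylate-binding protein that also acts on parasite vacuoles, and both its probe sets fell. On 1434380_PM_at it read 3.52, 3.68, 3.42 and 3.14 in treated cultures, against 4.39, 4.67, 4.43 and 4.29 in untreated cultures, a difference of -1.003 ± 0.12 (adjusted p = 3.96e-05). Both group means lay below background there, so its size depends on the floor. On 1425156_PM_at it was 4.24 ± 0.14 in treated and 4.53 ± 0.08 in untreated cultures, a difference of -0.29 ± 0.08 (adjusted p = 0.0175), with the treated mean below background. Without treated culture 4 the second value was not called (adjusted p = 0.0562). Gbp3 fell by 1.14 (SE 0.11, adjusted p = 8.76e-06) and Tgtp1 by 0.50 (SE 0.09, adjusted p = 0.00146), with the means of both groups below background in each gene. With all 6 groups in 1 fit, which shares the wider spread of the tumours, the calls of Igtp, Tgtp1 and Gbp7 on 1425156_PM_at were lost.
Ifi47 and Iigp1 were not called. Ifi47 was 4.46 ± 0.09 in treated and 4.55 ± 0.05 in untreated cultures, a difference of -0.09 with a 95% confidence interval from -0.24 to 0.06 (adjusted p = 0.382). The Iigp1 differences were -0.11 and -0.02 (adjusted p = 0.37 and 0.902), on values below background. A list of 3 nuclear-retained RNAs, which can mark a change of RNA composition, rose in 3 of 3 members with OTX015. The sum of their linear values was 898 to 1492 in treated and 383 to 450.1 in untreated cultures, and its part in the members' falls was not tested.

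**Figure D2:**
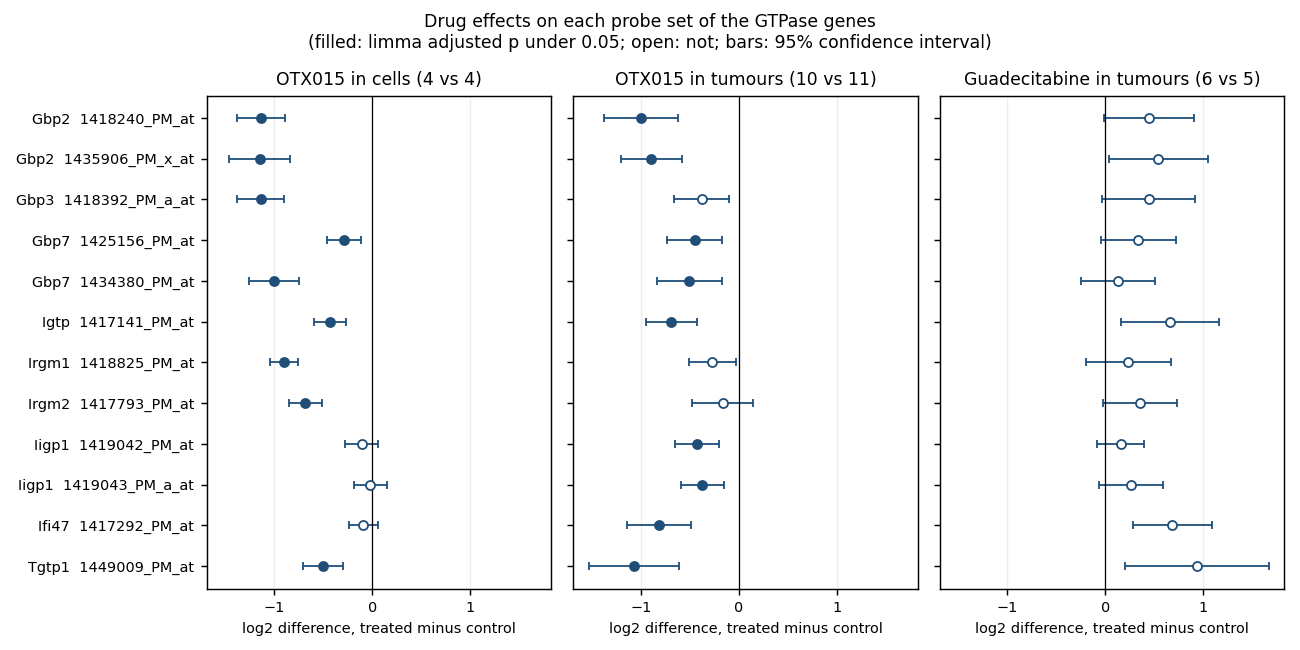
Log2 difference, treated minus control, of each of the 12 probe sets in the 3 drug comparisons with its 95% confidence interval; filled points passed limma at adjusted p under 0.05. In cultures 9 probe sets and in OTX015-treated tumours 9 lie below 0 and are filled, and with guadecitabine all 12 lie above 0 and are open.

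In tumours, OTX015 was set against the control tumours of its own experiment. Of the 12 probe sets 9 fell and 0 rose, in 6 of the 9 genes, and the median log2 difference was -0.48. Among all probe sets 16.7% were called, 8.58% higher and 8.08% lower, with a median of 0.00. None of the 12 separated the groups without overlap, against 1.47% of all probe sets that did, in either direction. An unadjusted p under 0.05 was found for 11 of the 12, against 29.2% of all probe sets. On the deposited values, where the median over all probe sets was -0.21 and 576 probe sets rose and 26259 fell, all 12 fell. Centring each array on its median, which called 6653 higher and 3106 lower against 3872 and 3646 after quantile normalization, again gave 9 falls and 0 rises among the members.
Tgtp1, an effector that loads onto vacuoles, ranged from 5.09 over a median of 5.65 to 6.04 in treated tumours, against 5.17, 6.62 and 7.62 in control tumours. Control tumour 4, at 5.17, lay among the treated tumours, and 10 of 10 treated tumours lay below the control mean. The difference was -1.07 ± 0.22 (SE, n = 10 and 11; 2.10-fold lower, limma adjusted p = 0.00175). Gbp2 on 1418240_PM_at ranged from 3.67 over 4.12 to 4.37 in treated tumours, against 4.34, 4.83 and 6.14 in control tumours. Of the treated tumours 9 of 10 were below every control, and all lay below background. The difference had a 95% confidence interval of -1.38 to -0.63 (adjusted p = 0.000492), and 1435906_PM_x_at, on which 1 of 10 treated tumours was above background, gave -0.89 ± 0.15 (adjusted p = 0.000242). The sizes of both depend on the floor.
Ifi47, an effector gene that did not pass in cultures, ranged from 4.63 over 4.83 to 5.06 in treated tumours, against 4.86, 5.59 and 6.54 in control tumours. The treated tumours were tightly grouped and 6 of 10 lay below every control. The difference was -0.81 ± 0.16 (1.76-fold lower, adjusted p = 0.000924). Igtp ranged from 4.51 over 4.92 to 5.39 in treated tumours, against 5.25, 5.59 and 6.36 in control tumours. Of the treated tumours 8 of 10 lay below every control, and the difference was -0.69 ± 0.13 (adjusted p = 0.000547).

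Gbp7 fell on both probe sets, by 0.45 (SE 0.14, adjusted p = 0.0257) on 1425156_PM_at and by 0.51 (SE 0.16, adjusted p = 0.0335) on 1434380_PM_at. The second call was lost in 8 of the 21 fits that left out 1 array (adjusted p up to 0.0635). It was also lost when probe sets with a mean below background were left out (limma adjusted p = 0.0510). Treated tumours averaged 4.24 on 1434380_PM_at, below background, with 3 of 10 arrays above it, so the size of that fall depends on the floor. Iigp1 fell by 0.42 (adjusted p = 0.00889) and 0.37 (adjusted p = 0.0204), below background in both groups. Irgm1, Irgm2 and Gbp3 did not pass. Irgm1 was 6.83 ± 0.28 in treated and 7.09 ± 0.29 in control tumours, a difference of -0.27 (95% confidence interval -0.51 to -0.03, adjusted p = 0.127). Without control tumour 4, the lowest control at 6.38, the Irgm1 difference was called (-0.34, adjusted p = 0.0218). Irgm2 was 4.43 ± 0.26 in treated and 4.60 ± 0.45 in control tumours (difference -0.16, interval -0.48 to 0.15, adjusted p = 0.516). Gbp3 had a difference of -0.38 (adjusted p = 0.0594), and was called without control tumour 4 or 9 (adjusted p down to 0.0146).
Markers shared by all leukocytes and most macrophage markers were lower in the same tumours, whereas markers of some other leukocytes were not. Of 3 markers of all leukocytes 3 fell and of 10 macrophage markers 8 fell, with median differences of -1.17 and -1.11. The summed linear values of the macrophage list ranged from 281 to 1305 in treated and from 730.1 to 3400 in control tumours, with 10 of 10 markers above background in both groups. Of 6 T cell markers 2 fell and of 8 markers of natural killer and cytotoxic cells 2 fell, and in each of these lists only 1 marker had a mean above background in either group. Of 4 neutrophil markers 0 were called (median 0.11), and of 4 dendritic cell markers 1 rose and 0 fell (median -0.03). Of 3 B cell markers, which lay below background, 0 were called (median -0.09). The part of any of these cell types in the falls of the GTPase genes was not tested. In cultures, which hold no host cells, 1 of the 10 macrophage markers lay above background.

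Guadecitabine was set against its own control tumours. No member was called among the 12 probe sets, and limma called 0 of 45141 probe sets in this comparison (0%). Unadjusted p was under 0.05 for 4 of the 12 member probe sets and for 7.76% of all probe sets. All 12 differences were above 0, with a median of 0.40 and a range of 0.13 to 0.94, against a median of 0.03 over all probe sets.
Tgtp1 ranged from 5.98 over 6.78 to 7.38 in guadecitabine tumours, and the 5 control tumours read 4.90, 6.11, 6.49, 5.22 and 6.29. The groups overlapped, with 6 of 6 treated tumours above the control mean. The difference was 0.94 (95% confidence interval 0.20 to 1.67, adjusted p = 0.609). Ifi47 ranged from 5.11 over 5.67 to 6.13 in guadecitabine tumours, and the control tumours read 4.61, 4.98, 5.02, 4.71 and 5.30. Again 6 of 6 treated tumours lay above the control mean, and only control tumour 5 reached into their range. The difference was 0.69 (interval 0.28 to 1.09, adjusted p = 0.565). Igtp ranged from 5.11 over 5.91 to 6.58 in guadecitabine tumours, and the control tumours read 4.97, 5.01, 5.52, 5.12 and 5.61. Guadecitabine tumour 3 was the one treated tumour below the control mean, and the difference was 0.66 (interval 0.16 to 1.16, adjusted p = 0.609). With all 6 groups in 1 fit, Ifi47 and Igtp were called higher (adjusted p = 0.0424 and 0.0360), in a fit that called 416 of all probe sets higher and 1045 lower.
The Gbp2 differences were 0.45 and 0.54, and those of Gbp3, Gbp7, Irgm1, Irgm2 and Iigp1 lay between 0.13 and 0.44. The leukocyte and macrophage lists had medians of the opposite sign here, -0.49 and -0.42, with 0 genes called in either direction. Their summed linear values overlapped, at 264 to 1030 for macrophages in guadecitabine tumours and 660.4 to 1093 in their controls. The nuclear-retained RNAs varied widely within both groups, with summed values from 137 to 1512 in guadecitabine tumours and from 427 to 1479 in controls.

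The effects of the 2 drugs in tumours were compared as a difference of differences, each drug against its own controls. In this contrast 8 of 12 member probe sets were lower with OTX015 and 0 higher, in 6 genes, with a median of -0.81. Of all probe sets 4.61% were called, 2.41% higher and 2.21% lower. On the deposited values all 12 were lower, among 550 higher and 13149 lower of all probe sets. The differences were -2.01 ± 0.41 for Tgtp1 (SE, limma adjusted p = 0.00352), -1.50 ± 0.26 for Ifi47 (adjusted p = 0.000922) and -1.35 ± 0.25 for Igtp (adjusted p = 0.00133). For Gbp2 they were -1.45 ± 0.30 and -1.44 ± 0.28 (adjusted p = 0.00479 and 0.0022), sizes that depend on the floor because OTX015-treated tumours and the guadecitabine controls averaged below background on both probe sets. Gbp7 on 1425156_PM_at (-0.79) and the 2 probe sets of Iigp1 (-0.58 and -0.63) passed with adjusted p of 0.0472, 0.0478 and 0.047, and in most fits that left out 1 array they did not. Gbp3, Irgm1, Irgm2 and the other Gbp7 probe set were not called (adjusted p = 0.0536, 0.201, 0.254 and 0.17).
The 2 sets of control tumours had different means, a difference that was not tested. Gbp2 on 1418240_PM_at averaged 5.04 in the OTX015 controls and 4.20 in the guadecitabine controls, and Tgtp1 6.65 and 5.80. OTX015-treated tumours, at 4.04 for Gbp2 and 5.58 for Tgtp1, lay within 1 SD of the guadecitabine controls. The macrophage list had group means of 6.08 in OTX015-treated tumours, 7.07 in their controls and 6.07 in the guadecitabine controls. The nuclear-retained RNAs averaged 5.46 in OTX015-treated tumours, 5.43 in their controls and 7.87 in the guadecitabine controls. Their summed linear values did not overlap between the control sets, at 115 to 259 and 427 to 1479. The part of either list in the members' values was not tested. Experiment and any array or mouse cohort cannot be told apart in these levels.

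The OTX015 effect in tumours was also compared with that in cells. Of the 12 probe sets 2 differed upward and 1 downward, against 25.9% of all probe sets called (13.4% higher and 12.6% lower). Gbp3 differed by 0.76 ± 0.24 (SE, limma adjusted p = 0.0167) and Irgm1 by 0.63 ± 0.20 (adjusted p = 0.0183), both with the larger fall in cultures. Gbp3 averaged 2.96 in treated and 4.10 in untreated cultures, and 3.02 in treated and 3.40 in control tumours, all below background. The size of its difference therefore depends on the floor. Ifi47 differed by -0.72 ± 0.27 (adjusted p = 0.0436), its fall being larger in tumours, but this call was lost in 18 of the 29 fits that left out 1 array (adjusted p up to 0.0806). Untreated cultures, at 4.55, lay close to background before any treatment, whereas control tumours averaged 5.66. How far the size of this difference depends on that nearness to background was not tested. On the deposited values 1 member probe set differed upward and 3 downward, and Irgm1 was not among them. Of all probe sets 3258 were higher and 15398 lower on those values, against 6035 and 5671 after quantile normalization. For Gbp2 the difference between the effects was 0.13 (95% confidence interval -0.51 to 0.77, adjusted p = 0.807).

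Untreated tumours were then set against untreated cultures, each set of controls on its own, and both comparisons share the same 4 cultures. In the OTX015 controls 6 probe sets were higher and 3 lower than in cultures, in 8 genes, against 36.3% of all probe sets called (18.4% higher and 17.9% lower). Median centring gave 4 higher and 4 lower among the members (5398 and 12211 of all probe sets), and the deposited values 5 and 4 (9322 and 10132), against 8287 and 8095 of all probe sets after quantile normalization. In the guadecitabine controls 2 were higher and 4 lower, in 5 genes, against 37.7% of all probe sets called (16.5% higher and 21.3% lower). There the deposited values gave 3 and 4 (7050 and 10174 of all probe sets) and median centring 2 and 4 (5398 and 14957), against 7427 and 9608 after quantile normalization. Tgtp1 was higher by 2.32 ± 0.32 in the OTX015 controls (4.98-fold, limma adjusted p = 4.15e-05) and by 1.46 ± 0.31 in the guadecitabine controls (adjusted p = 0.00433). Since cultures lay below background, these folds depend on the floor. Gbp2 was lower by 1.35 and 1.43 in the OTX015 controls (adjusted p = 0.00092 and 0.000166), and its 1418240_PM_at difference was -2.19 in the guadecitabine controls (adjusted p = 1.06e-05). The guadecitabine controls averaged 4.20 on that probe set, with 1 of 5 arrays above background, so the size of that difference depends on the floor. Every control tumour lay below every untreated culture for Gbp2. The same held for 10.6% of all probe sets in the OTX015 controls and 18.8% in the guadecitabine controls. Gbp3 was lower as well, with differences of -0.70 and -1.04, and Ifi47 higher, by 1.11 and 0.37. The sizes for Gbp3 depend on the floor, since cultures and both sets of control tumours lay below background. The second Ifi47 call (adjusted p = 0.0414) was lost in 6 of 9 fits without single arrays (adjusted p up to 0.099). Irgm1 and Igtp were higher in the OTX015 controls, by 0.66 and 0.51 (adjusted p = 0.00146 and 0.0151), but neither call held on the deposited values or with median centring. Their differences were 0.21 and 0.11 in the guadecitabine controls, where neither was called, and Irgm2 was lower there by 0.56 (adjusted p = 0.00449). The OTX015 controls were also higher for Gbp7 on 1425156_PM_at and Iigp1 on 1419042_PM_at, by 0.71 and 0.47 (limma adjusted p = 0.0106 and 0.0343). The other probe set of each was not called (adjusted p = 0.225 and 0.0851). Iigp1 lay below background, and its call was lost in 4 of 15 fits without single arrays (adjusted p up to 0.103). Markers of all leukocytes and of macrophages were higher in both sets of control tumours than in cultures. They were 3 of 3 leukocyte markers (medians 2.65 and 1.54 in the OTX015 and guadecitabine controls) and 10 of 10 macrophage markers (3.90 and 2.48). Lists of other host cells varied. In the OTX015 controls 4 of 4 neutrophil markers were higher, and in the guadecitabine controls 1. Of 6 T cell markers 3 and 2 were higher and 0 lower. Of 7 fibroblast markers 3 were higher and 3 lower in the OTX015 controls, and 3 and 2 in the guadecitabine controls. Of 3 B cell markers 0 were called in either set. Of the 3 nuclear-retained RNAs 0 were higher and 1 lower in the OTX015 controls (median 0.02), and 3 were higher in the guadecitabine controls (median 1.75). The part of these cells and RNAs in the members' differences was not tested.

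The rest of the pathway was read from lists of genes, each gene on its brightest probe set. Beside the counts that follow, 29.8% of all probe sets were called in treated cultures and 16.7% in OTX015-treated tumours. In cultures with OTX015, where 7 of the 9 genes fell, genes upstream changed in both directions. Of 8 receptor and kinase genes 4 rose and 2 fell. Jak1, which encodes a kinase shared by the receptors of both interferon types, rose by 1.23 (limma adjusted p = 3.7e-07) and Ifnar1, a type I interferon receptor chain, by 0.51. Ifngr1, the ligand-binding chain of the interferon gamma receptor, rose by 0.42, whereas the other chain gene, Ifngr2, fell by 0.51 and Ifnar2 fell by 0.41. Jak2, which pairs with Ifngr2, rose by 0.36. Of 7 STAT and IRF genes 3 rose and 1 fell, with Stat3 higher by 0.94 and Stat2, a partner of Irf9, by 0.36. Irf1, an early interferon gamma target that itself activates GTPase genes, rose by 0.36 (adjusted p = 0.0039), and Irf9, the DNA-binding part of the type I complex, fell by 1.26 (adjusted p = 4.6e-06, with treated cultures below background). Of 14 other type I interferon targets 0 rose and 11 fell, with a median of -1.45, and Ifit2, Rsad2 and Ifih1 had the smallest p, at -2.08, -2.02 and -1.56. Of 5 ligand genes 0 were called, with Ifna1 at -0.13, Ifnb1 at -0.17 and Ifng at 0.09. The 18 other interferon gamma targets were mixed, with 3 higher, 5 lower and a median of -0.09. Among them Cd274, which encodes PD-L1, fell by 1.39, Cxcl10 by 1.07 and the immunoproteasome gene Psmb10 by 1.25. The class I genes H2-D1 and H2-K1 rose by 0.66 and 0.56.
In OTX015-treated tumours, of the 8 receptor and kinase genes 0 rose and 4 fell. Tyk2, a kinase of the type I receptor, fell by 0.56 (adjusted p = 4.6e-06), Ifngr2 by 0.46, Ifnar1 by 0.37 and Ifngr1 by 0.25. Jak1 (-0.20) and Jak2 (0.22) did not pass. Of the 7 STAT and IRF genes 0 were called, the smallest p being those of Irf8 (-0.20), Stat3 (0.15) and Irf7 (-0.19), with Irf1 at -0.08 (adjusted p = 0.59). Ifng itself was below background in both groups, at 3.22 in treated and 3.05 in control tumours, though its difference of 0.17 was called (adjusted p = 0.027). Of 5 ligand genes, Ifnb1 was called as well (0.22, adjusted p = 0.038), also below background, and Ifna4 was not (-0.17). Interferon gamma targets fell in 12 of 18 cases and rose in 1, with a median of -0.53. Their smallest p were those of Psmb8 (-1.16), Psmb9 (-0.58) and Nlrc5 (-0.55), 2 immunoproteasome genes and a class I activator that lay below background. Type I targets fell in 6 of 14 with 0 higher, among them Cmpk2 (-0.67), Xaf1 (-0.57) and Ifit3 (-0.72).
The feedback gene Usp18, which encodes a brake on type I receptor signalling, fell by 1.03 in these tumours (adjusted p = 0.00016) and rose by 0.43 in treated cultures. Of the 7 measured brakes on the pathway 3 rose and 2 fell in treated cultures, led by Pias1 (0.80), Ptpn11 (1.09) and Ptpn6 (-0.83), and 1 rose and 2 fell in OTX015-treated tumours, with Ptpn6 at -0.25. With guadecitabine, the Usp18 difference was 0.75 (adjusted p = 0.61). Socs1, a brake on JAK kinases, lay below background in all groups, with a difference of 0.19 in treated cultures (not called) and 0.13 in OTX015-treated tumours (adjusted p = 0.034). With guadecitabine 0 genes of any of these lists were called. The medians were 0.11 for interferon gamma targets and 0.18 for type I targets. The smallest adjusted p were 0.61 for Cxcl11 (0.36), 0.62 for Psmb9 (0.64) and Psmb8 (0.60), 0.57 for Ddx58 (0.55), 0.58 for Xaf1 (0.43) and 0.64 for Oasl1 (0.23). Upstream, Jak2 (-0.12), Ifngr2 (-0.10), Ifnar1 (-0.07), Jak1 (0.02), Ifngr1 (0.07), Irf1 (-0.04) and Ifng (-0.02) were not called. Nor were Stat2 (0.28), Irf2 (-0.23), Stat3 (0.22), Ifna2 (0.32), Ifnb1 (0.07), Ifna1 (0.02), Ptpn6 (0.31), Socs3 (0.37) or Socs1 (0.07).

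**Figure D3:**
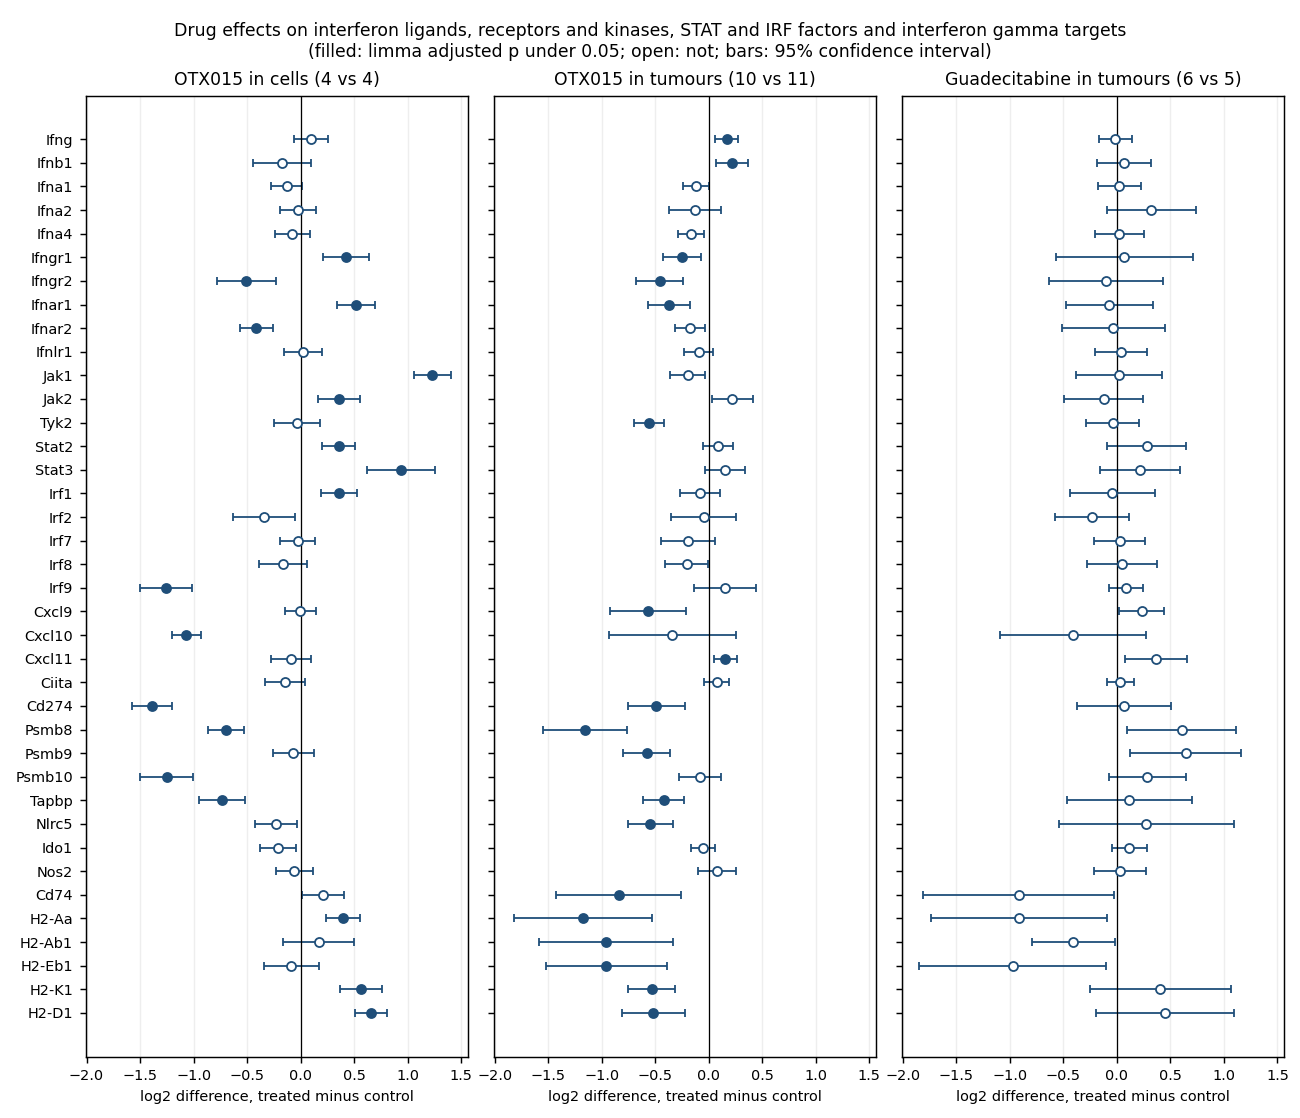
Log2 difference, treated minus control, with 95% confidence interval, of all measured interferon ligands (5), receptors and kinases (8), STAT and IRF factors (7) and other interferon gamma targets (18) from top to bottom; filled points passed limma at adjusted p under 0.05. Jak1 lies at 1.23 in treated cultures and at -0.20 in OTX015-treated tumours, and no point is filled for guadecitabine.

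Relatives outside the 9 genes were mostly below background. Of 6 other measured genes of the 2 GTPase families, Gbp2b, Gbp4, Gbp8, Gbp10 and Gm12185 lay below background in cultures and tumours. Gbp10 fell by 0.33 in treated cultures (limma adjusted p = 0.0047), and Gm12185 (0.18), Gbp2b (0.09), Gbp8 (-0.04) and Gbp4 (0.03) were not called there. None of these 5 passed in OTX015-treated tumours, where Gbp4 had -0.24 (adjusted p = 0.11), Gbp2b -0.10, Gbp10 -0.10, Gm12185 0.06 and Gbp8 -0.05. Irgq, a relative that is not known to need interferon, rose by 1.08 in treated cultures and fell by 0.51 in OTX015-treated tumours (adjusted p = 4.2e-06 and 0.0016). Of the large GTPase genes Mx1 and Mx2, Mx1 fell in both (by 0.53 and 0.37), below background throughout, and Mx2 passed in neither (-0.08 and -0.11). Genes of the autophagy conjugation machinery, which in mouse cells steers the GTPases to vacuoles, numbered 4 higher and 2 lower of 13 in treated cultures. Among all probe sets 29.8% were called in that comparison. Ulk1, an autophagy-starting kinase gene, rose by 1.57, and the conjugation enzyme genes Atg10 and Atg3 fell by 0.94 and 0.54. In OTX015-treated tumours 1 of the 13 rose (Ulk1, 0.33) and 1 fell (Atg12, by 0.31), against 16.7% of all probe sets called. Map1lc3a, with the next smallest p, had 0.09. Casp4, the caspase gene named above, fell by 0.86 in treated cultures and by 0.54 in OTX015-treated tumours. In treated cultures Casp8 fell as well, by 1.13, and the cytokine gene Il18 by 0.35. In OTX015-treated tumours Casp1 (-0.36) and Il18 (-0.14) were not called. With guadecitabine 0 of these genes passed, the smallest p being those of Irgq (0.14), Gm12185 (-0.06) and Gbp2b (0.03) among the relatives, where Gbp8, Gbp4 and Gbp10 had 0.02, 0.01 and -0.01. Mx2 and Mx1 had 0.24 and -0.08 there, Atg16l1, Atg7 and Atg10 -0.26, 0.19 and 0.20, and Nlrp3, Casp1 and Casp8 0.22, 0.12 and 0.10.

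Among tumours of the same group the members varied together to different degrees. After subtraction of group means, Pearson's r over the 32 tumours was above 0 in 34 of 36 pairs of members (1 probe set each), with a median of 0.40. The groups differed in this median, a difference that was not tested. It was 0.08 within the 10 OTX015-treated tumours (lowest pair -0.61) and 0.55 within their 11 controls, and 0.10 within the 6 guadecitabine tumours (lowest pair -0.89), whose 5 controls are too few for a correlation. Gbp7 with Ifi47 had r = -0.61 in OTX015-treated tumours and 0.81 in their controls, whereas Ifi47 with Tgtp1 had 0.58 and 0.72, and Gbp3 with Irgm2 0.75 and 0.92. The pooled values that follow average over these groups. In 14 pairs both Pearson's r and Spearman's rho passed a permutation test within groups (100000 resamples, two-sided, adjusted over the 36 pairs). The highest were Gbp3 with Irgm2 (r = 0.81, rho = 0.76, adjusted permutation p = 0.00036 for each, the smallest that these resamples can give after adjustment) and the effectors Ifi47 with Tgtp1 (r = 0.75, rho = 0.71, adjusted permutation p = 0.00072 and 0.00132). Without the 2 tumours farthest from the median of the first gene these r were 0.74 and 0.62. Gbp3 lay below background in all groups, and Irgm2 averaged below it in OTX015-treated tumours and in the guadecitabine controls. Gbp7 with Irgm2 and with Gbp3 gave r = -0.09 in both cases. Without the 5 arrays of low spread all 36 pairs were above 0 over 27 tumours, with a median of 0.58, and Gbp7 with Irgm2 stood at 0.37. The 2 probe sets of Gbp2 had r = 0.77 with each other over the 32 tumours and those of Iigp1 0.57, whereas those of Gbp7 had -0.09.
The genes whose pattern over the 32 tumours was most like the mean of the standardized members, by Pearson's r after group means were removed and among 17088 genes, were Phf11a (0.76), Ifit1 (0.73), Rtp4 (0.70), Ifit3 (0.69), Cd1d1 (0.68), Usp18 (0.67), Mmp17 (0.66), Ifi205 (0.66), Oasl2 (0.65) and Trim12a (0.64). Cd1d1, Mmp17, Ifi205, Oasl2 and Trim12a had means below background. For comparison r was 0.44 for the leukocyte gene Ptprc, 0.34 for the macrophage gene Adgre1 and 0.34 for Irf1, and within the OTX015-treated tumours and their controls taken apart it was 0.64 and 0.57, 0.40 and 0.31, and 0.47 and 0.40. The melanocyte gene Mitf had a pooled r of 0.43, with 0.71 in OTX015-treated tumours and 0.66 in their controls. Tyr, another melanocyte gene, had a pooled r of -0.008 and the T cell gene Cd3e -0.002. For Ifng, which lay below background, the pooled r of -0.10 combined -0.51 in OTX015-treated tumours and 0.56 in their controls. These values are a description over arrays that share experiments and normalization.

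**Figure D4:**
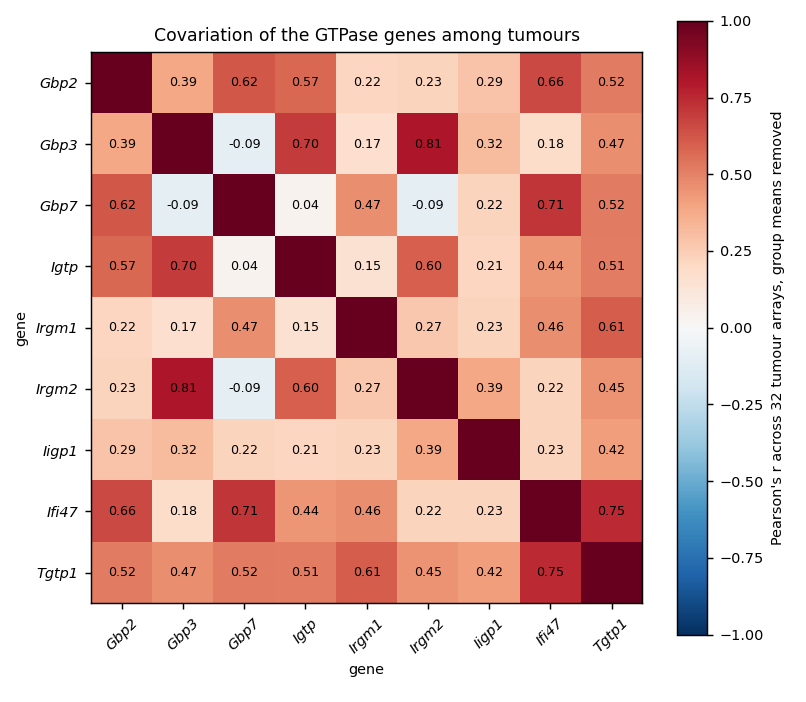
Pearson's r between each pair of the 9 genes over 32 tumour arrays after the mean of each of the 4 tumour groups was subtracted, 1 probe set a gene; colour and number both give r. Gbp3, Igtp and Irgm2 have r of 0.60 to 0.81 with each other, and Ifi47 has r of 0.66 to 0.75 with Tgtp1, Gbp7 and Gbp2. Gbp3 and Iigp1 had means below background in all groups.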

How the data were processed

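RNA of 40 samples was measured on 1 array each, from 500 ng of total RNA per the labels' protocols. The authors deposited log2 values per probe set. RMA and the Transcriptome Analysis Console are the tools that the submitters' processing notes list, without a version, and those notes do not say which arrays were run together. GEO's platform annotation supplied gene symbols, compared with RefSeq (GRCm38.p6) by gene number: 28898 probe sets name 1 gene, 551 several, and 15692 are unnamed here. The 40 columns were quantile normalized together and fitted per comparison in R 4.3.3 with limma 3.58.1 (two-sided moderated test), p-values being adjusted over 45141 probe sets. The members and the gene lists were chosen with earlier results of these data known. Every member probe set is named. In each list of pathway genes the 3 genes of smallest adjusted p are named per drug comparison, with fixed pathway genes and the 10 genes most like the members; cell type markers are given as counts and summed levels. H2-K1 and H2-D1 were named after their values were seen. The fit was tested on simulated data. Alternatives were other scalings, filters and fits, and each array left out in turn. The number of arrays limits the precision.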

Additional observations from a re-analysis of the deposited data

Results flagged for a closer look

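Of 60 groups of values tested for an outlying sample, where chance alone marks about 5%, 2 held one. The 11 control tumours of the OTX015 experiment were not tested in this way. Irgm1 read 6.31 in untreated culture 1, against 6.46 for the nearest of the other 3 untreated cultures. Iigp1 on 1419043_PM_a_at read 3.23 in OTX015-treated tumour 2, against 3.58 for the nearest treated tumour, both below background.

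The OTX015 effect in tumours differed from that in cells, by the test of the difference itself, for Gbp3 (0.76), Irgm1 (0.63) and Ifi47 (-0.72). These were 2 probe sets upward and 1 downward of 12, against 25.9% of all probe sets called. Gbp3 lay below background in all groups. The Ifi47 call was lost in 18 of the 29 fits that left out 1 array, and the Irgm1 call on the deposited values. The OTX015 effect in tumours differed from the guadecitabine effect for Gbp2 (-1.45 on 1418240_PM_at and -1.44 on 1435906_PM_x_at), Gbp7 on 1425156_PM_at (-0.79), Igtp (-1.35), Ifi47 (-1.50) and Tgtp1 (-2.01). The same test marked Iigp1 on 1419042_PM_at (-0.58) and 1419043_PM_a_at (-0.63), which lay below background in all groups. With these, 8 of 12 member probe sets were called lower in that contrast, against 4.61% of all probe sets called.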

How the results depend on the processing

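The count of called member probe sets stayed within 1.5 times its value, or at 0, under the other scalings, filters and fits, with these exceptions. Without dim probe sets, which leaves fewer members tested, 5 of 6 were called in cultures with OTX015 (9 of 12 otherwise) and 5 of 8 in the difference between OTX015 and guadecitabine (8 of 12 otherwise). With all 6 groups in 1 fit, guadecitabine had 2 calls (0 otherwise); the cause was not tested. Leaving out 1 array gave 8 to 9 calls for OTX015 in cultures, 8 to 11 for OTX015 in tumours, 0 to 0 for guadecitabine, 5 to 9 for OTX015 against guadecitabine, 2 to 3 for the OTX015 effect in tumours against cells, and 7 to 9 and 5 to 7 for the control tumours of the OTX015 and guadecitabine experiments against cultures. With the replicate block the counts were 9 in cultures, 8 in OTX015-treated tumours (Gbp7 on 1425156_PM_at was lost) and 0 with guadecitabine; same-numbered samples did not consistently vary together. Without the 5 arrays of low spread, chosen after the data were seen, 10 probe sets fell in OTX015-treated tumours and 0 were called with guadecitabine.

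Reversals were found only for values that were not called. Iigp1 on 1419043_PM_a_at in cultures turned to 0.023 with array weights and ranged from -0.056 to 0.017 without single cultures. In the guadecitabine controls against cultures it turned to 0.054 on the deposited values and ranged from -0.15 to 0.064 without single samples. There, Irgm1 turned to -0.067 on the deposited values and to -0.17 with median centring, and Igtp to -0.067 with median centring.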
